A study of Bos taurus with 24 samples.

Results

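The 8 libraries described here compare bovine muscle satellite cells cultured with fibroblasts at 72 h and at 24 h after the start of differentiation, with 4 libraries at each time, and were chosen by their titles from the 24 libraries of the series. The cells came from the longissimus dorsi muscle of wild type Bos taurus with 3 lines pooled at passage 3 and seeded at 8000 cells/cm2. Both times shared the fibroblasts, at passage 10 and separated from the satellite cells by a 0.4 µm pore membrane, the 5 days of growth in 20% fetal bovine serum, and the later change to 10% horse serum that began differentiation. The times of 72 h and 24 h count from that change. The 4 monoculture libraries at 72 h and the 4 at 24 h, labelled monoculture, were used only to set the same change beside it. Pooled lines mean that no result can be traced to 1 line, and the labels do not state that each replicate was its own culture, so a p-value reflects spread among libraries that may be technical.

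Satellite cells are the stem cells of skeletal muscle. When activated they divide as myoblasts, and when serum growth factors are withdrawn they normally leave the cell cycle, switch on MYOD1 and MYOG targets and fuse into myotubes. Fibroblasts on the far side of a porous membrane can reach them only through the medium, by secreted proteins, vesicles and metabolites.

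Whole-number read counts per gene were scaled to CPM, a per-million scale, with TMM factors, which correct for the make-up of each library. The table lists 11937 genes, each with at least 6 counts in every library used. Total counts per library ran from 17.3 to 21.4 M at 72 h and from 16.8 to 22.2 M at 24 h. A pair of libraries stood apart by their nuclear ribosomal RNA, replicate 1 at 72 h with 2.24% of its counts and replicate 2 at 24 h with 4.07%, while the other 6 had 0.708% to 0.855%. All 72 h libraries were sequenced in lane 7, whereas 2 of the 24 h libraries were in lane 6 and 2 in lane 7, per their labels. Of 6 satellite cell and myoblast markers listed among 10 examined, the summed level was 277 to 288 CPM at 72 h and 259 to 288 CPM at 24 h. The defining markers PAX7, MYF5, MYOD1 and CDH15, and all 9 myotube markers examined (MYOG, MYMK, MYH3, ACTA1, CKM, TNNT1, TNNT3, MYL1 and TTN), are not among the genes listed and were not analysed here. The name muscle satellite cell comes from the labels, and the listed markers that bear on it are PAX3, ITGA7, DES, SDC4, NCAM1 and MET. Of these, 3 were called higher at 72 h and 3 lower. Fibroblast markers, 8 of 12 listed, summed to 82859 to 84866 CPM at 72 h and 59023 to 66752 CPM at 24 h, nearly all of it from the collagen genes COL1A1 and COL3A1.

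At 72 h the cocultured cells had more RNA of inflammatory, interferon-induced and hypoxia-linked genes than at 24 h, and less of mitotic, sterol synthesis, respiratory chain and smooth muscle genes. A gene was called when edgeR's quasi-likelihood F test gave a Benjamini-Hochberg adjusted p under 0.05 over all 11937 genes. Of these, 5756 were called (48.2%), 2910 of them higher at 72 h (24.4%) and 2846 lower (23.8%). Most changes were small, with a median size of 0.35 on the log2 scale. A change of at least 2-fold was called for 344 genes higher at 72 h (2.88%) and for 208 lower (1.74%). In 5522 genes (46.3%) the 4 libraries at 72 h did not overlap the 4 at 24 h. Within lane 7 alone, with 4 libraries at 72 h and 2 at 24 h, 5318 genes were called, and 4942 of them had been called in the same direction with all libraries. With lane as a term in the model the count was 4675. Only the coculture group at 24 h had libraries in both lanes, so the lane term rests on that group. The lane term and the lane 7 fit are therefore not independent checks. The lane 6 libraries at 24 h include replicate 2, rich in ribosomal RNA, so lane cannot be fully told apart from that library. Below, a change given without a unit is the log2 fold change of 72 h over 24 h.

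The 12 largest rises and 12 largest falls were chosen among genes without overlap between the times. Their separation therefore follows from the choice and is no added evidence. The largest rise belonged to TSPAN13, a tetraspanin of the cell membrane. TSPAN13 (chromosome 4 from 25245149 to 25302689 in the authors' table, which was used without a named genome build) had 35.8, 47.4, 46.4 and 46.9 CPM at 72 h, against 0.658, 1.27, 0.802 and 0.495 CPM at 24 h. Its 72 h libraries all lay far above its 24 h libraries (log2 fold change 5.78 ± 0.16, adjusted p = 1.6e-23), with replicate 1 the lowest of the 72 h libraries.

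IL6, a cytokine secreted by many stressed or activated cells including muscle (chromosome 4 from 31454757 to 31459131), had 54.8, 197, 145 and 114 CPM at 72 h, against 2.93, 3.71, 2.81 and 3.15 CPM at 24 h. The 72 h libraries of IL6 differed among themselves more than those of TSPAN13 did, with replicate 1 lowest and replicate 2 highest (log2 fold change 5.33 ± 0.28, adjusted p = 2.3e-16). Without replicate 1 at 72 h the log2 fold change was 5.58. SFRP4, a secreted protein that binds Wnt ligands, had 102, 126, 114 and 112 CPM at 72 h, against 3.65, 3.97, 4.64 and 3.29 CPM at 24 h (log2 fold change 4.88 ± 0.21, adjusted p = 3.0e-18). The 72 h libraries of SFRP4 lay close together and apart from the 24 h libraries.

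The other large rises joined carbonic anhydrases, transporters, and secreted or membrane proteins. CA13 and CA2, cytosolic carbonic anhydrases that interconvert carbon dioxide and bicarbonate, rose by 4.39 and 3.63 on the log2 scale. CFB, complement factor B of the alternative complement pathway, had 16.5, 91.2, 47.1 and 56.5 CPM at 72 h, against 3.83, 1.91, 3.32 and 1.85 CPM at 24 h (log2 fold change 4.31 ± 0.48, adjusted p = 6.0e-09). Its 72 h libraries spread widely, with replicate 1 again lowest. RFTN1, a lipid raft protein, had 100.1 ± 2.33 CPM at 72 h and 5.37 ± 0.398 CPM at 24 h (SD, n = 4 each), with a log2 fold change of 4.21. The log2 fold changes were 4.07 for SLC1A1, a glutamate transporter, 3.76 for GPX3, a secreted glutathione peroxidase, 3.72 for SULF1, which removes sulfate groups from heparan sulfate, 3.72 for KCNE4, a potassium channel subunit, and 3.71 for the membrane protein TMEM150C. All 12 of the largest rises were also called higher at 72 h in monoculture.

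HDAC9 showed the largest fall, and the falls named here were likewise chosen among genes without overlap. HDAC9 is a class IIa histone deacetylase that represses MEF2, a transcription factor of muscle differentiation. HDAC9 (chromosome 4 from 26710138 to 27293366) had 4.03, 1.39, 3.2 and 2.13 CPM at 72 h, against 17.2, 20.2, 21.4 and 20.6 CPM at 24 h. The 72 h libraries all lay below the 24 h libraries (log2 fold change -2.900 ± 0.17, adjusted p = 2.0e-15), with replicate 1 highest and replicate 2 lowest among the 72 h libraries, the reverse of IL6. ELN, which encodes the elastic fibre protein elastin, had 96.1, 77.3, 81.6 and 72.6 CPM at 72 h, against 401, 392, 450.3 and 430.3 CPM at 24 h (log2 fold change -2.35 ± 0.069, adjusted p = 1.6e-22). The ELN groups were widely separated. AQP1, a water channel, had 2.9, 1.51, 2.8 and 2.32 CPM at 72 h, against 10.7, 13.8, 12.03 and 11.7 CPM at 24 h (log2 fold change -2.34 ± 0.14, adjusted p = 1.4e-14).

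SKOR1, a transcriptional corepressor of the SKI family, had a log2 fold change of -2.57, and HEYL, a Notch-induced repressor, one of -1.85. Signalling genes among the largest falls were SEMA5B, a semaphorin, at -2.09, ADCY2, an adenylate cyclase, at -2.003, and NTS, the precursor of neurotensin, at -1.94. SCIN, an actin-severing protein, changed by -1.88, FABP4, a fatty acid carrier of adipocytes and endothelium, by -1.85, LGI2 by -1.87 and ATP6AP1L by -2.09. All 12 of the largest falls were also called lower at 72 h in monoculture. For 10 of these falls, and for 6 of the 12 largest rises, the change differed between the cultures by the test of that difference, against 23.7% of all genes. These genes were picked by their change in coculture, which is part of that difference, so the counts are not independent support.

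**Figure D1:**
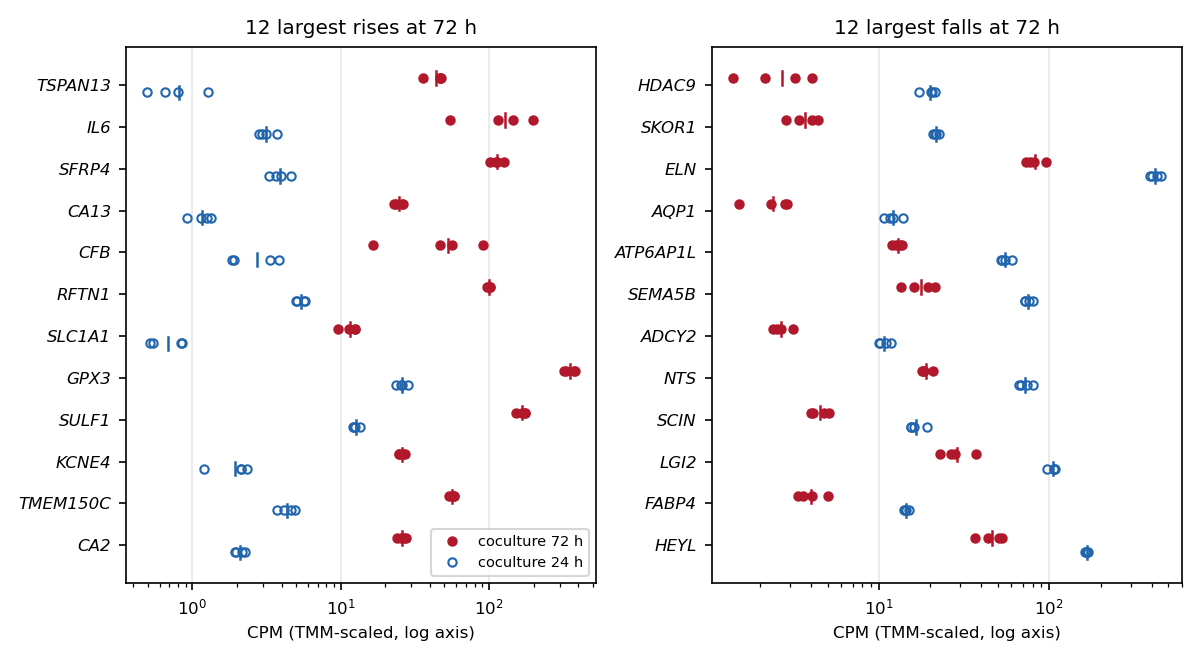
Expression of the 12 top rising and 12 top falling genes at 72 h in coculture, as TMM-scaled CPM on a log axis. Each point is 1 library, filled for 72 h and open for 24 h, and short vertical lines are group means. The genes were chosen among those without overlap between the times, and IL6 and CFB spread most at 72 h.

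Gene lists for muscle, cell cycle, matrix, immune and metabolic functions showed where these changes gathered. In the list of cytokines, chemokines and NF-kB targets, 30 of 39 measured genes were higher at 72 h and 2 were lower, against 24.4% higher and 23.8% lower of all genes. The median log2 fold change of the list was 0.89, against 0.003 for all genes, and 17 of its genes were at least 2-fold higher. Among interferon-induced effectors, 23 of 27 genes were higher and 1 was lower, with a median of 0.62. Among genes of RNA sensing and interferon signalling, 19 of 26 were higher and 1 was lower. Glycolysis and hypoxia genes were higher in 29 of 41 cases and lower in 3. At the other end, all 46 measured mitosis genes were lower, as were 32 of 39 DNA replication genes, with none higher in either list. Nuclear-encoded respiratory chain genes were lower in 34 of 49 cases, with none higher.

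**Figure D2:**
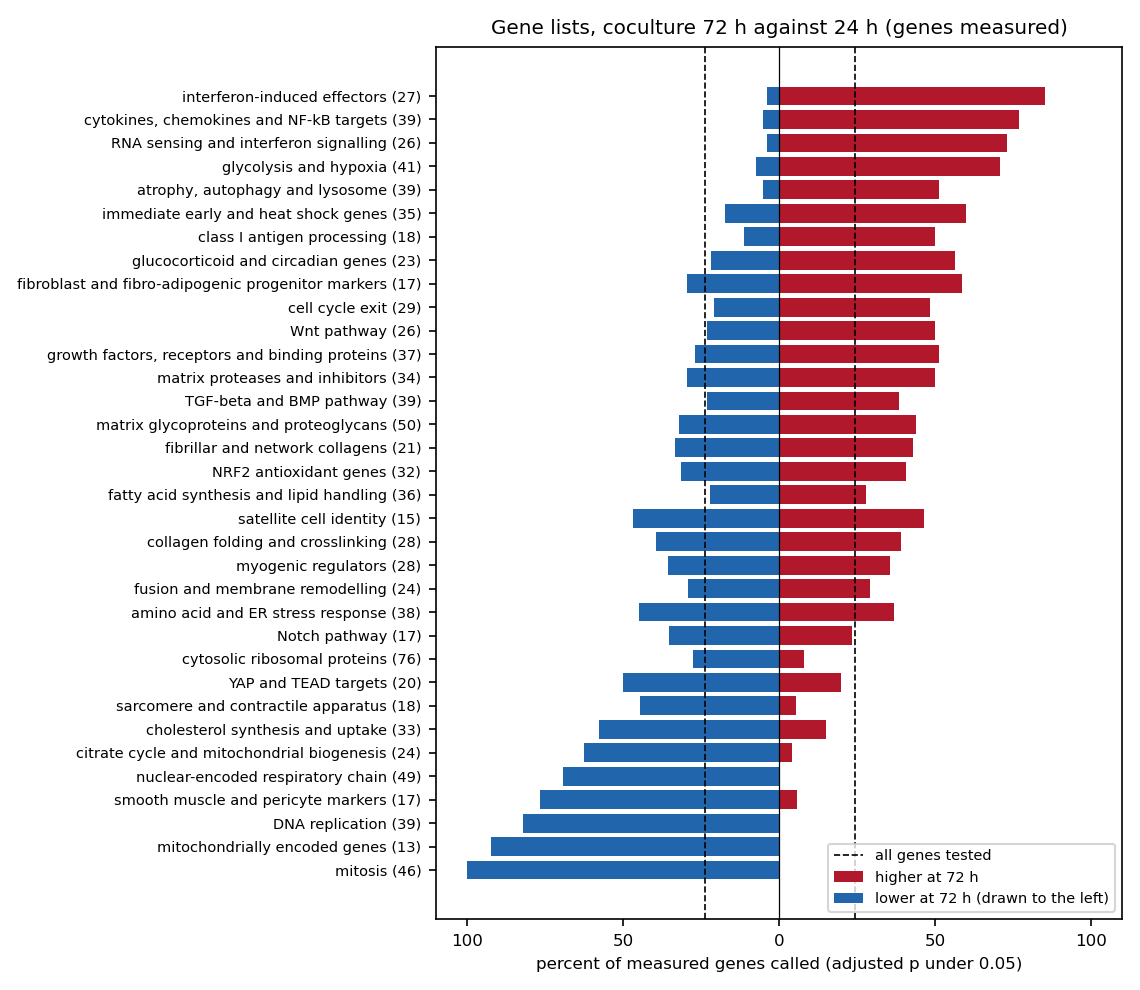
Share of measured genes in each list called higher (to the right) or lower (to the left) at 72 h in coculture, in percent, for lists with at least 10 measured genes, whose number stands in parentheses. Dashed lines mark the shares of all genes tested, 24.4% and 23.8%. Interferon and cytokine lists stand at the top and mitosis, with 46 of 46 lower, at the bottom.

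Cytokine genes and NF-kB targets reached different heights in the 72 h libraries. SOD2, the mitochondrial superoxide dismutase and an NF-kB target, had 53.1, 169, 129 and 96.4 CPM at 72 h, against 15.3, 14.8, 13.98 and 14.9 CPM at 24 h (log2 fold change 2.92 ± 0.20, adjusted p = 2.1e-13). CXCL5, a neutrophil-attracting chemokine, had 277, 662, 514 and 464 CPM at 72 h, against 129.8, 121, 128 and 129.96 CPM at 24 h (log2 fold change 1.91 ± 0.16, adjusted p = 1.3e-11). Neither gene's groups overlapped, and in both genes replicate 1 was the lowest and replicate 2 the highest 72 h library.

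CCL5, a chemokine for T cells and monocytes, had 3.44, 12.9, 4.84 and 10.3 CPM at 72 h, against 0.957, 1.06, 1.03 and 1.08 CPM at 24 h (log2 fold change 2.93 ± 0.52, adjusted p = 2.1e-05), with the largest standard error among the genes of the list named here. TNFAIP3, which encodes A20, an inhibitor of NF-kB signalling, had 23.3 ± 8.55 CPM at 72 h and 5.57 ± 0.748 CPM at 24 h (SD, n = 4 each; log2 fold change 2.06 ± 0.18, adjusted p = 7.2e-11). The 2 genes of the list that were lower were IL15, at -1.04, and CXCL12, the ligand of CXCR4, at -0.85. IL15 is known from mouse and human muscle as a secreted myokine.

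The 39 genes of the list together summed to 1839, 3195, 2619 and 2565 CPM at 72 h, against 1089, 1086, 1104 and 1092 CPM at 24 h. The 24 h libraries were nearly level, while the 72 h libraries ranged from replicate 1, the library rich in ribosomal RNA, to replicate 2. Of the 30 genes that were higher, 28 (93.3%) were lowest in replicate 1 among the 72 h libraries and 25 (83.3%) were highest in replicate 2. Over all 2910 genes higher at 72 h, replicate 1 was lowest for 35.7% and replicate 2 highest for 31.7%. Without replicate 1 at 72 h and replicate 2 at 24 h, 30 genes of the list were again higher and 2 lower, and with lane in the model the counts were also 30 and 2.

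**Figure D3:**
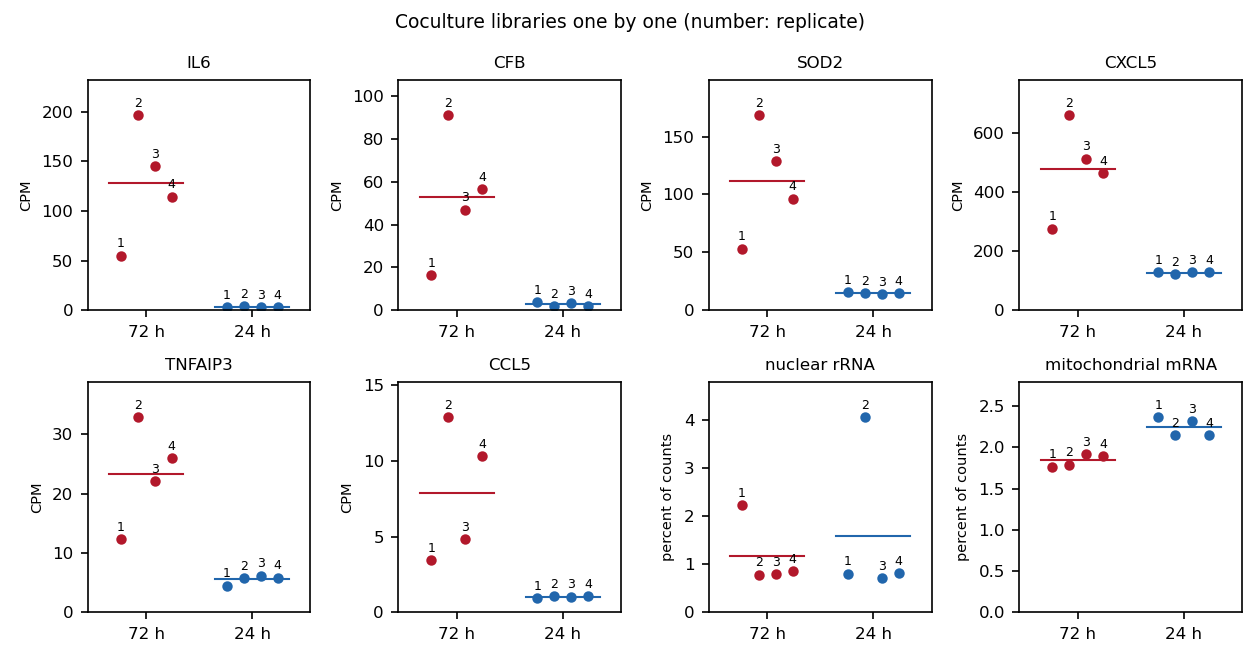
Levels of 6 cytokine and NF-kB target genes in CPM, and of nuclear ribosomal RNA and mitochondrial messenger RNA in percent of counts, in each coculture library. Points are libraries numbered by replicate, 72 h at the left and 24 h at the right, and horizontal lines are means. Replicate 1 at 72 h is lowest for the 6 genes and has more nuclear ribosomal RNA than the other 72 h libraries.

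Interferon-induced genes were also higher at 72 h. MX1, a GTPase that blocks viral replication, had 46.5, 58.2, 62.1 and 43.9 CPM at 72 h, against 5.44, 14.04, 8.76 and 18.1 CPM at 24 h (log2 fold change 2.15 ± 0.17, adjusted p = 4.3e-12). The groups did not overlap, although the 24 h libraries ranged widely, with replicate 1 lowest and replicate 4 highest. SAMD9, an antiviral factor, rose by 1.87 on the log2 scale, IFI6 by 1.75 and TRIM21, a cytosolic antibody receptor, by 1.497. The lone gene of the list called lower was 1 of 2 listed under the symbol TRIM5, which cannot be told apart by name, and its call was lost with libraries scaled by their totals alone, with lane in the model, within lane 7 and without the libraries rich in ribosomal RNA. Of the 23 higher genes 18 (78.3%) were lowest in replicate 1 among the 72 h libraries and 12 (52.2%) were highest in replicate 2. Over all genes higher at 72 h these shares were 35.7% and 31.7%. Without the libraries rich in ribosomal RNA 23 genes of the list were again higher.

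Sensors of viral RNA were among the higher genes. IFIH1, which encodes MDA5, had 7.52, 13.97, 10.5 and 9.15 CPM at 72 h, against 3.65, 3.97, 3.67 and 4.5 CPM at 24 h (log2 fold change 1.37 ± 0.16, adjusted p = 3.0e-08), with no overlap. DHX58, which encodes the sensor LGP2, rose by 1.11, RIGI by 0.83 and IRF9, the DNA-binding part of the interferon-activated complex ISGF3, by 0.95. STING1, the adaptor of DNA sensing, was lower at -0.49. Its call was lost with lane in the model, within lane 7 and without the libraries rich in ribosomal RNA. In class I antigen processing 9 of 18 genes were higher and 2 lower. ERAP2, which trims peptides for class I molecules, rose by 0.87 and PSMB10, an immunoproteasome subunit, by 0.58, whereas the chaperones CALR and PDIA3 changed by -0.401 and -0.25.

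Proliferation genes were lower at 72 h. MKI67, the proliferation marker Ki-67 (chromosome 26 from 47507868 to 47537900), had 50.003, 58.02, 54.1 and 57.04 CPM at 72 h, against 121, 152, 132 and 125 CPM at 24 h. All 72 h libraries lay below all 24 h libraries (log2 fold change -1.28 ± 0.082, adjusted p = 3.8e-14). Its coculture level was 137 ± 14.6 CPM in proliferation, 133 ± 13.8 CPM at 24 h and 54.8 ± 3.6 CPM at 72 h (SD, n = 4 each). The means in proliferation and at 24 h were close, and that earlier step was not tested here.

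The 46 mitosis genes had a median log2 fold change of -1.05, and 28 of them were at least 2-fold lower. Together they summed to 863, 990.5, 911 and 975 CPM at 72 h, against 1856, 2123, 1841 and 1883 CPM at 24 h, with no overlap. The largest falls were -1.44 for TTK, a spindle checkpoint kinase, -1.43 for ASPM, a spindle pole protein, -1.42 for KIF20A, a kinesin of cytokinesis, and -1.403 for MAD2L1, a spindle checkpoint protein. The DNA replication genes fell less, with a median of -0.5004. The largest were GINS2, a part of the replicative helicase, at -0.94, ORC1, of the origin recognition complex, at -0.89, POLE, the catalytic subunit of a replicative polymerase, at -0.84, and DUT, which removes dUTP, at -0.802. In bulk RNA a smaller share of dividing cells and less RNA per dividing cell cannot be told apart.

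Genes linked to leaving the cell cycle moved in both directions. CDKN1A, which encodes the cyclin-dependent kinase inhibitor p21, had 288, 279, 308 and 281 CPM at 72 h, against 216, 215, 226 and 229 CPM at 24 h (log2 fold change 0.38 ± 0.053, adjusted p = 4.3e-07), a small rise without overlap. GAS1, a growth arrest gene, rose by 1.38, BTG2, an antiproliferative gene, by 1.08, and MDM2, the ubiquitin ligase of p53, by 0.48. CCND1, cyclin D1, which promotes entry into S phase, also rose, by 1.09. E2F8, E2F1, RBL1 and CDKN2C were lower, at -1.39, -0.72, -0.67 and -0.58. Of the 29 measured genes of the list 14 were higher (48.3%) and 6 lower (20.7%), against 24.4% and 23.8% of all genes. The share lower was thus near that of all genes.

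Muscle lineage genes did not move as a block. Of 15 satellite cell identity genes 7 were higher and 7 lower. NCAM1, a cell adhesion molecule of satellite cells and myoblasts, had 39.8, 43.9, 42.4 and 40.97 CPM at 72 h, against 9.45, 9.91, 9.85 and 10.2 CPM at 24 h (log2 fold change 2.08 ± 0.066, adjusted p = 8.7e-22), whereas PAX3, a paralogue of PAX7 that marks some muscle progenitors, had 17.8, 21.6, 21.3 and 19.9 CPM at 72 h, against 42.4, 40.3, 42.6 and 38.5 CPM at 24 h (log2 fold change -1.02 ± 0.066, adjusted p = 4.1e-14). Neither gene's groups overlapped, and the directions were opposite. NES, the intermediate filament nestin, had a log2 fold change of -1.18. SDC2 and SDC4, syndecan proteoglycans, rose by 0.95 and 0.58, and the growth factor receptor FGFR1 rose by 0.63. ITGA7, the laminin-binding integrin of myoblasts and muscle fibres, had 48.05, 31.1, 36.6 and 38.1 CPM at 72 h, against 57.2, 51.97, 62.6 and 59.8 CPM at 24 h (log2 fold change -0.59 ± 0.086, adjusted p = 9.1e-07), lower in every 72 h library.

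Of 28 myogenic regulators 10 were higher and 10 lower. TWIST2 and SIX2, transcription factors of mesenchymal progenitors, rose by 0.85 and 0.68, and ID3, an inhibitor of basic helix-loop-helix factors, by 0.57. MEF2C, a partner of the myogenic factors, was lower at -0.82, EYA4, a transcriptional coactivator, at -1.06, and ID2 at -0.63. MEF2C was near the lower end of what is listed, with 1.68 ± 0.0772 CPM at 72 h and 2.99 ± 0.187 CPM at 24 h (SD, n = 4 each).

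The sarcomere list had 18 measured genes of 57, of which 8 were lower and 1 was higher. The log2 fold changes were -1.63 for MYOM1, an M-band protein, -1.22 for CKB, brain-type creatine kinase, -0.93 for FHL1, a LIM-domain protein, and -0.53 for FLNC, muscle filamin. The higher gene was ANKRD1, a stress-responsive ankyrin repeat protein, at 0.75. Of 24 cell fusion genes 7 were higher and 7 lower, 29.2% in each direction, near the 24.4% and 23.8% of all genes. ELMO1, an activator of Rac signalling, rose by 1.83 and NEO1, a receptor of netrin and repulsive guidance molecules, by 0.71, while the tetraspanin CD9 changed by -0.55, and MYOF and DYSF, ferlins that act in membrane fusion and repair, by -0.401 and -0.36.

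Smooth muscle and pericyte genes were lower in 13 of 17 cases and higher in 1. ACTA2, smooth muscle actin, which myoblasts and myofibroblasts also express, had 6294, 5309, 5646 and 5838 CPM at 72 h, against 11879.6, 11371, 12219 and 11795 CPM at 24 h (log2 fold change -1.03 ± 0.055, adjusted p = 3.7e-16). The groups were far apart. CSPG4, the pericyte proteoglycan NG2, had 70.98, 46.7, 59.6 and 60.3 CPM at 72 h, against 174, 188, 199.98 and 190.1 CPM at 24 h (log2 fold change -1.66 ± 0.082, adjusted p = 6.1e-17), also without overlap. NOTCH3, a receptor of mural cells and satellite cells, was lower at -1.23 and ANPEP, a membrane peptidase, at -1.35, while MYLK, myosin light chain kinase, rose by 0.41. Of 8 smooth muscle and pericyte cell markers 7 were listed, and their summed level was 9266 to 10304 CPM at 72 h and 16427 to 17485 CPM at 24 h. All 7 were lower.

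Matrix genes changed in both directions. COL1A1, the alpha 1 chain of type I collagen, had 55096, 51789.9, 52604 and 53070.5 CPM at 72 h, against 40192, 37668, 43098 and 39977 CPM at 24 h (log2 fold change 0.401 ± 0.039, adjusted p = 3.8e-10), a small rise without overlap. COL3A1 rose by 0.46, COL5A2 by 0.32 and COL8A2 by 1.25. The basement membrane collagens COL15A1, COL18A1 and COL4A2 were lower, at -1.73, -0.95 and -0.44, as was COL7A1 of anchoring fibrils, at -0.67. Of the 21 collagens 9 were higher and 7 lower, but only 5 were higher with lane in the model and 4 without the libraries rich in ribosomal RNA.

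Of 28 genes for collagen folding and crosslinking 11 were higher and 11 lower. P4HA1 and P4HA3, subunits of collagen prolyl hydroxylase, rose by 0.97 and 0.804, and LOXL4, a lysyl oxidase, by 0.52. LOXL1 and LOXL3, of the same enzyme family, were lower at -0.404 and -0.49, and the crosslinking enzyme TGM2 at -0.95. Among glycoproteins and proteoglycans 22 of 50 were higher and 16 lower. MFAP2, of elastic microfibrils, had 29.3, 27.2, 28.5 and 25.2 CPM at 72 h, against 3.41, 2.54, 2.41 and 3.24 CPM at 24 h (log2 fold change 3.24 ± 0.12, adjusted p = 1.5e-20), a separation opposite to that of ELN. LAMA2, the laminin chain of muscle basement membrane, rose by 1.997 and ASPN, asporin, by 1.99, while LTBP1, which binds latent TGF-beta, was lower at -1.11, the proteoglycan PRELP at -1.103 and FBLN5, needed for elastic fibre assembly, at -0.69.

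Of 34 matrix proteases and inhibitors 17 were higher and 10 lower. ADAMTS9, a proteoglycan-cleaving protease, rose by 2.27, and the protease inhibitors TIMP3 and RECK by 1.01 and 0.94. PLAT, tissue plasminogen activator, was lower at -0.595. Among 17 markers of fibroblasts and fibro-adipogenic progenitors 10 were higher and 5 lower. PDGFRA, the receptor that marks those progenitors, had 104.6, 134, 125 and 119 CPM at 72 h, against 71.8, 72.6, 67.1 and 65.3 CPM at 24 h (log2 fold change 0.801 ± 0.056, adjusted p = 2.6e-13), higher in every 72 h library. CLEC3B, OSR1 and DCN rose by 1.77, 0.94 and 0.88, whereas THY1, POSTN, S100A4 and GSN changed by -0.66, -0.66, -0.69 and -0.94. These levels moved with the matrix changes, and their part in them was not tested.

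Growth factor genes included some of the larger changes. IGFBP3, which binds insulin-like growth factors, had 22.5, 13.1, 20.5 and 17.3 CPM at 72 h, against 1.97, 1.75, 2.005 and 1.98 CPM at 24 h (log2 fold change 3.24 ± 0.17, adjusted p = 2.1e-16), with no overlap. LIF, a cytokine of the IL6 family, rose by 2.400, FGF7 by 1.52 and PDGFC by 1.07. HGF, known as an activator of satellite cells, was lower at -1.02, and the receptors PDGFRB and IGF1R were lower at -0.696 and -0.61. HGF was among the genes with few counts, with 1.07 ± 0.511 CPM at 72 h and 2.25 ± 0.164 CPM at 24 h (SD, n = 4 each). Of 37 genes of the list 19 were higher (51.4%) and 10 lower (27.0%), the latter near the 23.8% of all genes. SPP1, osteopontin, a secreted phosphoprotein, had 143, 113, 131 and 129.8 CPM at 72 h, against 201, 208, 220.1 and 196 CPM at 24 h (log2 fold change -0.68 ± 0.054, adjusted p = 5.1e-12), lower in every 72 h library.

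Sterol synthesis genes were lower along most of the pathway. The pathway builds cholesterol from acetyl-CoA and is switched on by the transcription factor SREBF2 when cell sterol is low. Of 18 synthesis enzymes drawn in pathway order 13 were lower and 0 were higher. HMGCS1, which makes HMG-CoA, had 26.9, 24.9, 24.9 and 24.4 CPM at 72 h, against 63.03, 60.02, 59.2 and 63.8 CPM at 24 h (log2 fold change -1.28 ± 0.056, adjusted p = 3.0e-18). SQLE, squalene epoxidase, had 8.65, 7.71, 8.85 and 10.01 CPM at 72 h, against 26.6, 28.4, 23.5 and 25.6 CPM at 24 h (log2 fold change -1.56 ± 0.070, adjusted p = 7.2e-18). In both genes the 72 h libraries lay close together and below the 24 h libraries.

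The log2 fold changes were -1.33 for CYP51A1, which demethylates lanosterol, and -1.24 for SREBF2 itself. The wider list, with uptake and oxysterol genes, had 19 of 33 genes lower and 5 higher. Its largest change ran the other way: CH25H, which makes 25-hydroxycholesterol, had 65.3, 65.3, 63.3 and 65.01 CPM at 72 h, against 8.13, 6.2, 6.59 and 5.63 CPM at 24 h (log2 fold change 3.298 ± 0.10, adjusted p = 7.3e-22). NR1H3, the oxysterol receptor LXR alpha, and NPC1, which exports cholesterol from lysosomes, rose by 0.32 and 0.27.

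**Figure D4:**
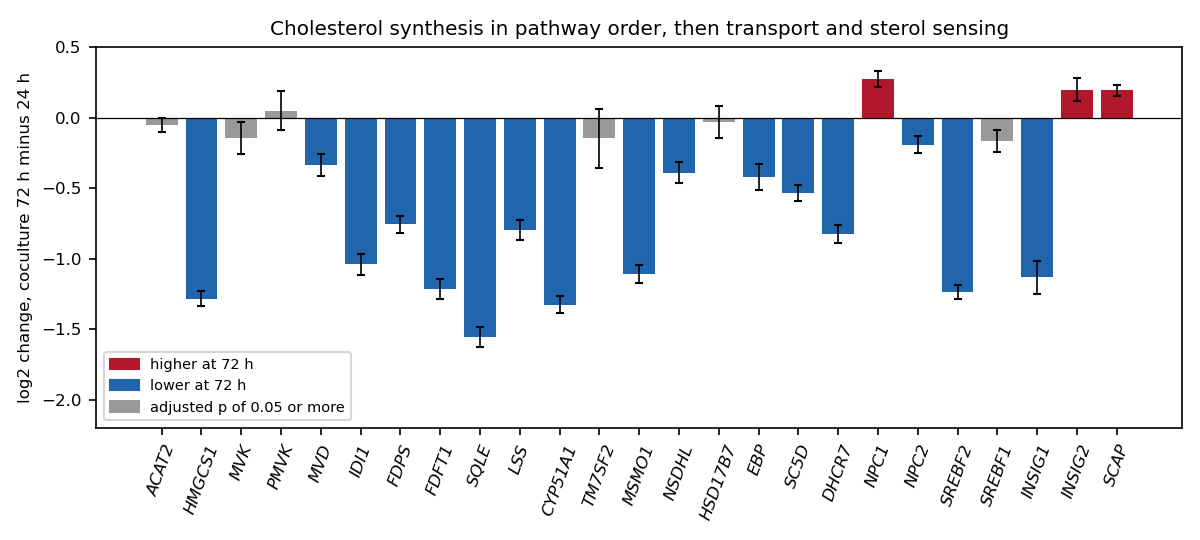
Log2 change between 72 h and 24 h in coculture for cholesterol genes, drawn in pathway order from ACAT2 to DHCR7, followed by transport and sterol-sensing genes. Bars are estimates and error bars standard errors of the fit. Of the 18 enzymes 13 are lower, with SQLE the lowest at -1.56, and none is higher. The call for INSIG2 was lost with lane in the model, with totals alone, and without any 1 of replicates 1, 3 and 4 at 72 h or 1, 2 and 3 at 24 h.

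Genes of glycolysis and hypoxia were higher in most cases, to different heights in the 72 h libraries. SLC16A3, a lactate exporter, rose by 2.19. HK2, the inducible hexokinase, had 43.1, 58.5, 48.1 and 50.8 CPM at 72 h, against 16.9, 21.9, 16.04 and 17.8 CPM at 24 h (log2 fold change 1.46 ± 0.078, adjusted p = 3.9e-16). DDIT4, a hypoxia- and stress-induced inhibitor of mTOR signalling, rose by 1.52. The HK2 groups did not overlap. HK3, another hexokinase, was lower at -1.71 and PFKP, a phosphofructokinase, at -0.32. The median log2 fold change of the glycolysis and hypoxia list was 0.47. Its 41 genes summed to 14828, 17415, 16106 and 15818 CPM at 72 h, against 11898, 11764, 11568 and 11753 CPM at 24 h. Of the 29 higher genes 26 (89.7%) were lowest in replicate 1 at 72 h, the library rich in ribosomal RNA, and 27 (93.1%) were highest in replicate 2, against the 35.7% and 31.7% of all higher genes given above. Without the pair of libraries rich in ribosomal RNA 30 genes of the list were higher and 2 lower.

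The respiratory chain genes encoded in the nucleus had a median log2 fold change of -0.22. The log2 fold changes were -0.52 for NDUFA4 and -0.41 for COX5A, both linked to cytochrome c oxidase, -0.397 for CYC1, of complex III, and -0.38 for ATP5F1B, of ATP synthase. Of 24 genes for the citrate cycle and mitochondrial biogenesis 15 were lower, among them PPARGC1B, a coactivator of mitochondrial genes, at -1.14, and the isocitrate dehydrogenases IDH2 and IDH3A at -0.97 and -0.68. The 1 gene called higher, SUCLA2, lost its call with lane in the model, within lane 7 and without the libraries rich in ribosomal RNA.

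Of the 13 genes encoded by mitochondrial DNA 12 were lower, with a median of -0.301. CYTB, cytochrome b, had 966, 945, 997 and 984 CPM at 72 h, against 1434, 1420.1, 1404 and 1263 CPM at 24 h (log2 fold change -0.504 ± 0.059, adjusted p = 1.6e-08), and ND4L changed by -0.53. Messenger RNA of these 13 genes took 1.84% ± 0.0732 of counts at 72 h and 2.24% ± 0.113 at 24 h (SD, n = 4 each). The difference was -0.402 percentage points, lower in 4 of 4 libraries at 72 h. An exact two-sided permutation test gave p = 0.0286, the smallest that 4 against 4 libraries allow, and 0.114 after Benjamini-Hochberg adjustment over 4 such shares. Nuclear ribosomal RNA took 1.17% ± 0.714 at 72 h and 1.60% ± 1.65 at 24 h, with an exact permutation p of 0.857.

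Genes in the list of immediate early genes, which cell signalling switches on within minutes, and heat shock genes were higher at 72 h in 21 of 35 cases and lower in 6. EGR1, a zinc finger transcription factor (chromosome 7 from 49826480 to 49830253), had 311, 317, 313 and 303 CPM at 72 h, against 24.9, 36.6, 30.9 and 29.1 CPM at 24 h (log2 fold change 3.36 ± 0.090, adjusted p = 1.4e-23). FOS, of the AP-1 complex, had 316, 282, 317 and 316 CPM at 72 h, against 38.6, 45.03, 44.5 and 42.3 CPM at 24 h (log2 fold change 2.85 ± 0.15, adjusted p = 1.5e-16). Both genes were even within each time and far apart between times.

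NR4A1, an orphan nuclear receptor, rose by 2.68, and DUSP1, a phosphatase that switches off MAP kinases, by 1.596. The lower genes were led by the chaperones CRYAB, at -1.79, HSPA1A, at -0.53, and HSPH1, at -0.46.

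The same time step in monoculture gave 6430 called genes (53.9%), 3255 higher (27.3%) and 3175 lower (26.6%). The difference between the change in coculture and the change in monoculture was tested in the same model and was called for 2826 genes (23.7%). It was positive for 1431 and negative for 1395. It exceeded 2-fold for 176 genes in the positive direction (1.47%) and for 72 in the negative (0.603%). The median difference of all genes was 0.003, and 0.14 when libraries were scaled by their totals alone, where 2914 genes were positive and 497 negative, so the split depends on the scaling. The monoculture libraries were all in lane 6, and with lane in the model 2417 differences were called. Replicates 3 and 4 of monoculture at 72 h had 2.14% and 1.76% of counts from nuclear ribosomal RNA, against 0.59% and 0.284% in replicates 1 and 2. Without these and the coculture pair rich in ribosomal RNA 2710 differences were called, 214 of them positive and 87 negative by at least 2-fold. Differences counted for gene lists are those that were called. Their background is the 1431 positive and 1395 negative among all 11937 genes, and 2914 and 497 with totals alone. With totals alone all genes shifted towards positive differences, so a larger positive count of a list under that scaling is no added evidence.

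The fall of mitosis genes was smaller in coculture, with a median of -1.05 against -2.17 in monoculture, and the difference was positive for 45 of 46 genes under each of the 3 scalings tried. For DNA replication 27 of 39 genes had a positive difference and 0 a negative one, and 34 were positive with libraries scaled by their totals alone. MKI67 changed by -1.28 in coculture and by -2.66 in monoculture (difference 1.39 ± 0.12, adjusted p = 9.2e-10).

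Immune genes rose more in coculture. The interferon-induced effectors had a median of 0.62 in coculture and 0.04 in monoculture, with a positive difference for 24 of 27 genes and a negative one for 0, and 25 positive with totals alone. For cytokines and NF-kB targets the medians were 0.89 and 0.22, with 23 of 39 positive and 0 negative, and 25 positive with totals alone. Among genes with a called difference, an unshared symbol and at least 5 CPM, the largest positive differences were RND1 at 2.503 ± 0.42, adjusted p = 4.1e-05, followed by SOD2 at 2.36, TNFAIP3 at 2.17, CXCL5 at 2.16, IFIH1 at 2.05 and MT2A, a metallothionein, at 1.95. RND1 had 9.54, 39.8, 22.7 and 24.8 CPM at 72 h, against 2.99, 3.81, 3.44 and 2.88 CPM at 24 h, with replicate 1 lowest at 72 h. MX1 changed by 2.15 in coculture and 0.61 in monoculture (difference 1.54 ± 0.39, adjusted p = 0.0046). IL6 changed by 5.33 and 3.69 (difference 1.65 ± 0.61, adjusted p = 0.048), a call that was lost with lane in the model, and without replicate 3 at 72 h or any 1 of replicates 1, 3 and 4 at 24 h of coculture, or any 1 of 6 of the 8 monoculture libraries.

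Of 35 immediate early and heat shock genes 20 had a negative difference and 5 a positive one, and these counts were 17 and 8 with totals alone. Among genes with a called difference, an unshared symbol and at least 5 CPM, the largest negative differences were DUSP5, a phosphatase of ERK, at -3.36 ± 0.38, adjusted p = 7.2e-08, EGR1 at -2.85, NR4A1 at -2.53, XIRP1, an actin-binding muscle protein, at -2.21, NR4A2 at -1.98 and PIM1, a kinase, at -1.86. EGR1 changed by 3.36 in coculture and 6.203 in monoculture, and DUSP5 by 0.96 and 4.32. XIRP1 changed by 0.46 in coculture, which was not called (adjusted p = 0.11), and by 2.66 in monoculture.

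Smooth muscle and pericyte genes had a negative difference in 13 of 17 cases and a positive one in 1, and sarcomere genes had a negative one in 10 of 18 cases and a positive one in 0. With libraries scaled by their totals alone these counts were 8 and 2 for smooth muscle and 9 and 1 for sarcomere genes. ITGA7 changed by -0.59 in coculture and 0.25 in monoculture (difference -0.84 ± 0.12, adjusted p = 2.2e-06). PDGFRA changed by 0.801 in coculture and -0.11 in monoculture (difference 0.91 ± 0.082, adjusted p = 1.6e-09). Its list of fibroblast and fibro-adipogenic progenitor markers did not share this direction. Of those 17 genes 2 had a positive difference and 4 a negative one, with a median of -0.05. With totals alone the counts were 5 and 3. The sterol genes had medians of -0.39 in coculture and -0.61 in monoculture, and HMGCS1 changed by -1.28 in coculture and -1.28 in monoculture. An unexplained code in the labels also differs between these coculture and monoculture libraries and cannot be told apart from the culture.

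**Figure D5:**
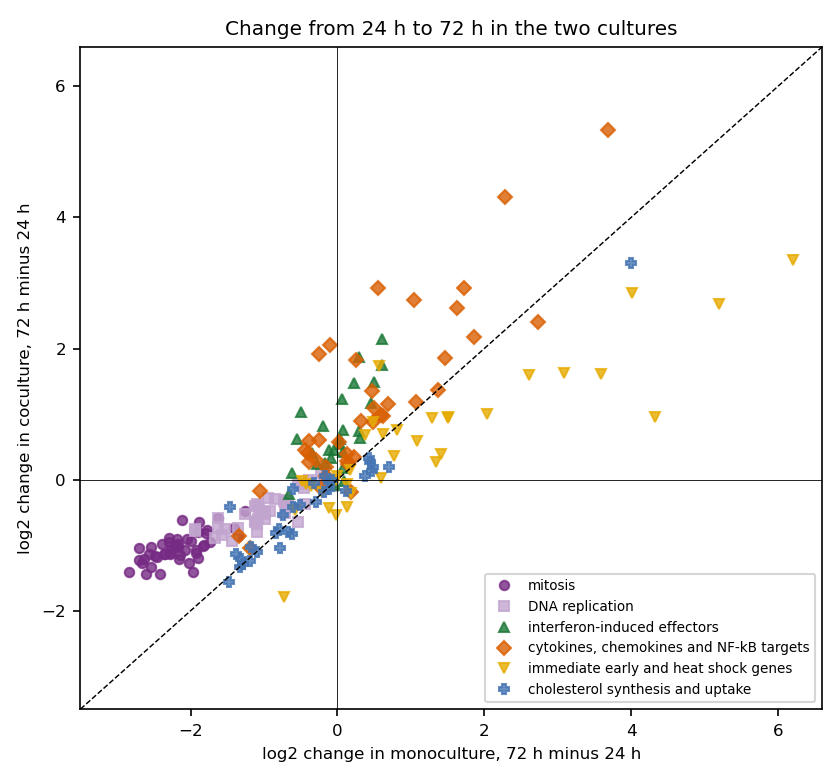
Log2 change between 72 h and 24 h in coculture (vertical axis) against the same change in monoculture (horizontal axis) for the genes of 6 lists. Each point is 1 gene, and the dashed line marks equal change. Mitosis genes lie above the line at negative values, most cytokine and interferon genes above it, many immediate early genes below it, and sterol genes near it.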

How the data were processed

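Libraries of bovine satellite cells, per the labels, were prepared using VAHTS Universal V8 reagents of Vazyme and 400 ng of RNA. The authors deposited a table of read counts, whole numbers per gene. The submitters' processing notes name FastQC, STAR, RSEM and DESeq2 without versions, so the counts may be rounded estimates, and STAR and RSEM settings and the genome build are not given in the sources used here. Of 36 library columns 24 carry a labelled library name, and the other 12 were not used. Gene symbols and coordinates came from a deposited table of the authors. Rows that share a symbol, 140 symbols in all, cannot be told apart by name.

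The analysis used edgeR 4.0.16 under R 4.3.3: TMM scaling, filterByExpr (which removed 0 genes), 1 mean per group over all 24 libraries in 6 groups (18 residual degrees of freedom), the quasi-likelihood F test, and Benjamini-Hochberg adjustment over 11937 genes. The value after ± is the standard error, the log2 fold change divided by the square root of F, unless SD is stated. The fitted biological coefficient of variation was 6.86%. No pair of replicates agreed within sampling noise. The fit was tested on simulated counts with known changes.

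Named were the 12 largest rises and 12 largest falls among called genes with an unshared symbol, at least 5 CPM and no overlap, the 6 largest differences of change in each direction, up to 4 genes per direction of each of 38 lists, and 18 fixed genes, of which 10 are listed. Some genes that this rule names are not reported here. The lists held 1240 symbols, 998 of them measured. The comparison, the members and the lists were chosen with earlier results of these data known. Alternatives were other scalings and filters, DESeq2 1.42.0, fewer libraries, lane and replicate number in the model, and leaving out libraries. Intervals and p-values cover neither library preparation nor culture shared by all replicates. Figures were drawn with matplotlib 3.10.9 in Python 3.11.15.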

Additional observations from a re-analysis of the deposited data

Results flagged for a closer look

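A library stood apart from the other 3 of its group, by Dixon's criterion for groups of 4, in 4 of 92 groups examined. Chance alone gives about 1 in 20 such groups. TSPAN13 was at 35.8 CPM in replicate 1 at 72 h, below the other 72 h libraries, and without that library its log2 fold change was 5.87. LGI2 was at 97.3 CPM in replicate 1 at 24 h, below the others of that time. Nuclear ribosomal RNA took 2.24% of counts in replicate 1 at 72 h and 4.07% in replicate 2 at 24 h, above the rest of each group.

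The change between 72 h and 24 h differed between coculture and monoculture, by the test of the difference in edgeR's quasi-likelihood model, for 34 of 44 genes examined, of which 12 had been picked for that difference. The largest rises and falls had been picked for their change in coculture, which is part of that difference. Over all genes 23.7% were called. The values that follow are differences of log2 fold change, coculture minus monoculture. Among the largest rises they were 0.89 for TSPAN13, 1.65 for IL6, 0.59 for CA2, -0.96 for CA13, -0.29 for RFTN1 and -1.46 for KCNE4. Among the largest falls they were -1.45 for HDAC9, -0.88 for SKOR1, -0.65 for ELN, -1.54 for AQP1, -1.26 for SEMA5B, -0.73 for NTS, -1.09 for LGI2, -0.42 for FABP4, -0.67 for HEYL and 0.603 for SCIN. Of the fixed genes they were 1.39 for MKI67, 0.91 for PDGFRA, -0.17 for COL1A1, 1.54 for MX1, -0.84 for ITGA7, -2.85 for EGR1 and 0.32 for CDKN1A. Of the genes picked for the difference they were 2.503 for RND1, 2.36 for SOD2, 2.17 for TNFAIP3, 2.16 for CXCL5, 2.05 for IFIH1, 1.95 for MT2A, -3.36 for DUSP5, -2.53 for NR4A1, -2.21 for XIRP1, -1.98 for NR4A2 and -1.86 for PIM1. With lane in the model the calls for IL6, CA13, RFTN1 and NTS were lost, with totals alone those for RFTN1, COL1A1 and FABP4, and with replicate number in the model those for TSPAN13 and RFTN1. With 1 library left out, the call for TSPAN13 was lost without coculture replicate 1, 3 or 4 at 24 h or 2, 3 or 4 at 72 h, and that for IL6 without replicate 1, 3 or 4 at 24 h or 3 at 72 h. That for COL1A1 was lost without replicate 2 at 72 h or 3 at 24 h, and that for FABP4 without replicate 2 or 4 at 72 h or 3 at 24 h. That for RFTN1 was lost without any 1 of the 4 libraries at 72 h or replicate 2 or 4 at 24 h. Leaving out 1 monoculture library ended the call for TSPAN13 (replicate 1 or 2 at 72 h, or 2, 3 or 4 at 24 h), IL6 (replicate 1, 2 or 3 at either time), RFTN1 (replicate 1 or 4 at 72 h, or 2, 3 or 4 at 24 h), FABP4 (replicate 1, 3 or 4 at 72 h, or 3 at 24 h), COL1A1 (replicate 2 or 4 at 24 h) and CA13 (replicate 3 at 24 h). Of the alternatives run, the change of XIRP1 within coculture was called only without replicate 2 at 72 h or without replicate 3 at 24 h. All monoculture libraries were in lane 6.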

How the results depend on the processing

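The count of called genes, 5756, ranged from 4675 with lane in the model to 6178 with the 8 libraries alone, and from 5211 to 5401 when 1 library was left out. Lane left 79.0% of the calls in the same direction. The count of differences, 2826, ranged from 2398 to 2910 with 1 coculture or monoculture library left out, was 2417 with lane, 2215 with only the coculture libraries of lane 7, and 3411 with library totals alone; leaving out monoculture libraries was chosen after seeing the data. With a mean of at least 5 CPM, 216 genes were at least 2-fold higher at 72 h, against 344, and 40 differences were negative by at least 2-fold, against 72. With library totals alone, 2914 differences were positive, 497 negative, and 44 negative by at least 2-fold, and the cause was not tested. The share of nuclear ribosomal RNA, 72 h minus 24 h, ranged from -0.786 to 0.393 percentage points with 1 library left out, and turned positive, 0.393, without replicate 2 at 24 h; that alternative was chosen after seeing the data. The share of mitochondrial messenger RNA ranged from -0.434 to -0.362. One of the genes listed as RPS19 turned to 0.0436 with lane and 0.0407 within lane 7, and 1 listed as RPL35 to 0.231 and 0.229; the cause was not tested.

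Of the other values for single genes in coculture, 4816 kept direction and call, 86 lost the call and 2 gained it. Of those for differences of change, 783 kept both and 65 lost the call. Deviations of same-numbered libraries from their group means correlated at -0.142, -0.0847, 0.0435 and -0.0429. Replicate 1 at 72 h and replicate 2 at 24 h, both rich in ribosomal RNA, correlated at 0.225. Those libraries enter the group means, so the correlations cannot decide whether replicate numbers pair the libraries. With a replicate block 5680 genes were called, and 2708 differences. The deposited counts cover only genes with at least 6 counts in every library used, and why other genes are missing was not tested.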

Other observations

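Genes of the Notch, Wnt, TGF-beta and YAP pathways were called in both directions at 72 h in coculture, beside 24.4% of all genes higher and 23.8% lower. Changes without a unit are log2 fold changes. Of 17 Notch pathway genes 4 were higher (23.5%) and 6 lower (35.3%) at 72 h. JAG1, a Notch ligand, had 284, 232, 258 and 269 CPM at 72 h, against 435, 449.6, 475 and 463 CPM at 24 h (log2 fold change -0.81 ± 0.057, adjusted p = 3.2e-13), lower in every 72 h library, and LFNG, which modifies Notch receptors, was at -0.81. Of 26 Wnt pathway genes 13 were higher and 6 lower (23.1%). FZD1, a Wnt receptor, had 187, 173, 182 and 176 CPM at 72 h, against 80.3, 86.6, 89.8 and 86.02 CPM at 24 h (log2 fold change 1.07 ± 0.043, adjusted p = 3.6e-19), while the ligand WNT5A and the antagonist DKK2 were at -1.48 and -1.77. Of 39 TGF-beta and BMP genes 15 were higher (38.5%) and 9 lower (23.1%). TGFB3, a ligand, had 49.1, 35.8, 40.4 and 39.3 CPM at 72 h, against 92.5, 88, 93.5 and 94.2 CPM at 24 h (log2 fold change -1.16 ± 0.065, adjusted p = 1.3e-15), and GREM1, a BMP antagonist, was at -0.81, whereas BMP6 and the receptor TGFBR2 rose by 1.46 and 1.03. Of 20 YAP and TEAD targets 4 were higher and 10 lower, with CCN1 at 0.16 and AJUBA at -0.64.

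Of 39 genes for atrophy, autophagy and lysosomes 20 were higher and 2 lower. SQSTM1, the autophagy receptor p62, rose by 0.74 and GABARAPL1, of the autophagosome, by 0.82. Of 23 glucocorticoid-induced and circadian genes 13 were higher and 5 lower, and the lower ones included the clock genes PER1 and PER2, at -0.41 and -0.53. Of 32 NRF2 antioxidant genes 13 were higher and 10 lower. HMOX1, haem oxygenase 1, had 29.3, 26.8, 27.03 and 29.4 CPM at 72 h, against 10.3, 11.7, 11.5 and 10.9 CPM at 24 h (log2 fold change 1.34 ± 0.072, adjusted p = 3.9e-16), whereas NQO1, a quinone reductase, had 58.6, 42.9, 53.3 and 49.7 CPM at 72 h, against 144, 133, 153 and 153 CPM at 24 h (log2 fold change -1.51 ± 0.089, adjusted p = 4.4e-15). The groups of each of these antioxidant genes were separate and lay in opposite order. Of 38 genes of the amino acid and ER stress responses 14 were higher and 17 lower, with the ER chaperone HSPA5 at 0.68 and PDIA4, an ER protein disulfide isomerase, at -0.56.

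Of 36 fatty acid and lipid genes 10 were higher (27.8%) and 8 lower (22.2%), near the shares of all genes. PLIN2, which coats lipid droplets, had 346, 399, 379.99 and 366 CPM at 72 h, against 151, 136, 141 and 146 CPM at 24 h (log2 fold change 1.38 ± 0.046, adjusted p = 2.7e-21), and FASN, fatty acid synthase, was at -0.59. Of 76 genes for cytosolic ribosomal proteins 6 were higher (7.89%) and 21 lower (27.6%), with a median of -0.05. The number higher was 3 with lane in the model and 10 within lane 7. MGP, an inhibitor of calcification, had 50.2, 37.2, 47.4 and 41.3 CPM at 72 h, against 4.19, 5.03, 3.78 and 5.22 CPM at 24 h (log2 fold change 3.26 ± 0.10, adjusted p = 3.9e-22), higher in every 72 h library.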
